A study of Mus musculus with 4 samples.

Results

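The antigen receptor loci of the mouse were examined in maps of histone H3 lysine 27 trimethylation (H3K27me3) from splenic germinal center B cells. They are 6 stretches of the genome set by coordinates: the immunoglobulin loci Igh, Igk and Igl, which B cells rearrange, and the T cell receptor loci Tra/Trd, Trb and Trg, which T cells rearrange. In windows of 10 kb they hold 889 of the 272252 windows of chromosomes 1 to 19, X and Y. The immunoglobulin loci take 622 windows (Igh 279, Igk 318, Igl 25) and the T cell receptor loci 267 (Tra/Trd 181, Trb 67, Trg 19).

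Sorted germinal center B cells from the spleens of C57BL/6 mice were profiled by CUT&Tag, an assay in which an antibody directs a transposase to cut and tag DNA beside a chromatin mark. All mice were given sheep red blood cells as antigen, with a second dose on day 5, and were killed on day 12. There were 2 mice labelled Kdm6b B KO (KO) and 2 wild-type mice (WT), with 1 library of 1000 to 5000 cells and 1 µg of antibody per mouse. Replicate numbers within a genotype were assigned here, not by the labels, and pair no libraries. Kdm6b encodes a demethylase that removes methyl groups from H3K27. Neither the Cre driver nor the deleted exons are stated in these sources, the series title speaks of a pre-plasma stage while the samples are called germinal center B cells, and peak lists do not measure the level of Kdm6b itself.

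V, D and J segments are separate pieces of DNA that the Rag1 and Rag2 recombinase joins during lymphocyte development, so that each B or T cell makes its own receptor. A V segment supplies most of the antigen-binding domain, D segments (in Igh, Trb and Trd) and J segments complete it, and C regions encode the constant part. The Trd segments lie inside the Tra locus, between the Trav and the Traj segments. In germinal centers B cells mutate their rearranged V exons and can switch class, a step in which the DNA between Ighm and another constant gene is removed. H3K27me3 is laid down by the Polycomb complex PRC2 and is known for covering silent genes, often at promoters rich in CG dinucleotides.

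The sequences that follow are promoters of genes inside these loci that are not receptor segments, picked for the reasons given. They are 4 of the 30 annotated promoters inside the 6 loci, each reaching from 250 bases before to 50 bases after a gene start, from RefSeq on build GRCm38.p6, written 5′ to 3′ on the gene's strand with CG dinucleotides in capitals. Gm30275 (chr14:54125684-54125983, minus strand) and Gm30392 (chr14:53961603-53961902, minus strand) are long noncoding RNA genes of Tra/Trd and the only 2 of the 30 whose promoter met a peak. 1700074P13Rik (chr6:40940508-40940807, minus strand) in Trb has the most CG of the 30, and Gm35545 (chr16:19218252-19218551, plus strand) is shown for Igl.
Gm30275: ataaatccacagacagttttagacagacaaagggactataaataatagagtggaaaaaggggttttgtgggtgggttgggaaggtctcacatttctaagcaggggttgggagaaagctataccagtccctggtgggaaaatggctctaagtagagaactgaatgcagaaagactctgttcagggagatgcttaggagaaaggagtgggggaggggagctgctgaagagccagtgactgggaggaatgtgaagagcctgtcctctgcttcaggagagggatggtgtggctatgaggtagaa
Gm30392: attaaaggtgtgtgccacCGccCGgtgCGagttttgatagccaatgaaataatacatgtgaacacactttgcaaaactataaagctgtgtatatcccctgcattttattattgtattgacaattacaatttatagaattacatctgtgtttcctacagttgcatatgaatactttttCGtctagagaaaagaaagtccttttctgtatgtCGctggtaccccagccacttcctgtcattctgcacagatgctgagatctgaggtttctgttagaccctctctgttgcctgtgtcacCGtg
1700074P13Rik: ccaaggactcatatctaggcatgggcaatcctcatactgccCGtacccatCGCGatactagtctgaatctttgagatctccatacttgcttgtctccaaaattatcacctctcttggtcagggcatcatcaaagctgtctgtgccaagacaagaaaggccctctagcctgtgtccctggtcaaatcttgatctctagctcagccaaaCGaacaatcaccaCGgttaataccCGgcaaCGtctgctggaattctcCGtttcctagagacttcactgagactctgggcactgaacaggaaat
Gm35545: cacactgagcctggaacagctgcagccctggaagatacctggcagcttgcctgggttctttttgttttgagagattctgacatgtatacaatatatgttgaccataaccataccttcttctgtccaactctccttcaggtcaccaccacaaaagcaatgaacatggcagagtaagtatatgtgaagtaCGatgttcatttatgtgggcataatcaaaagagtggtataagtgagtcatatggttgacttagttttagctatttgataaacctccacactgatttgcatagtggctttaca

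The promoter of Gm30275 holds 0 CG and that of Gm30392 holds 6, while 1700074P13Rik holds 8 and Gm35545 holds 1. Peaks covered 100% of the Gm30275 promoter in both KO libraries and in WT replicate 1, and 8.33% of it in WT replicate 2. The Gm30392 promoter, which begins at the base after the segment Trdv2-2, was covered to 100% in KO replicate 2 and WT replicate 1 and to 0% in the other two libraries. The 1700074P13Rik and Gm35545 promoters were covered to 0% in every library. None of the 30 promoters is that of a V, D, J or C segment, so their values do not describe segment promoters. Across the 30 promoters the median was 1 CG and 42.8% G or C, and 14 of the 30 held no CG. Over all 32851 promoters of the same length the median was 7 CG and 52.7% G or C. The letters CG, which read the same on both strands, occurred in 53.3% of the promoters inside the loci and in 94.6% of all promoters. A peak in any library met 6.67% of the promoters inside the loci and 46.1% of all promoters. In all 4 libraries a peak met 1 of the 30 (3.33%), against 17.3% of all promoters.

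The libraries held 80639 to 90417 peaks, but their covered length differed more. The KO libraries had 144 and 236 Mb under peaks and the WT libraries 213 and 101 Mb, which is 5.28% and 8.66%, and 7.81% and 3.72%, of the genome (replicate 1 first in each genotype). KO replicate 2 and WT replicate 1 were thus the broad libraries, and each genotype held a broad and a narrow library. Of all 21887 protein-coding genes, 17.6%, 26.2%, 23.5% and 13.1% were covered to at least 25% of their length with 2 kb on each side (KO replicates 1 and 2, then WT replicates 1 and 2). Of 7 B cell marker genes, 0 passed that level in 3 libraries and 1 (Cd79b, 31.0%) in KO replicate 2, and Bcl6, the germinal center regulator, was at 0% in all 4. Of 10 T cell markers 6 to 8 passed that level, and of 5 myeloid markers 2 to 4. Each library pools many cells, so a mark in few cells and a low level in all of them cannot be told apart.

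All 6 loci were poorer in H3K27me3 than the 500 kb on each side of them. Where 4 values follow each other, here and in all that comes after, they are those of KO replicates 1 and 2 and then of WT replicates 1 and 2. Peaks covered 0.658%, 1.13%, 0.961% and 0.497% of Igh. The 500 kb on each side of Igh were covered to 15.2%, 23.9%, 20.6% and 9.95%. The 4 Igh values lay below 1.2% while no flank value was below 9.9%, and the locus was lower than its flanks by 16.6 ± 5.83 percentage points (SD, n = 4). In Igk, the covered share was 1.57%, 3.28%, 2.20% and 1.86%, against 16.8%, 27.1%, 25.9% and 12.6% in its flanks. Igl had no peak in any library, while its flanks were covered to 14.3%, 23.2%, 20.3% and 11.5%. The differences for Igk and Igl were -18.4 ± 6.50 and -17.4 ± 5.36 points.

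Among the T cell receptor loci, Tra/Trd, which encodes the alpha and delta chains, carried 2.19%, 6.01%, 4.73% and 1.74%, with flanks at 17.4%, 26.4%, 23.2% and 11.5%. Trb, the beta chain locus, was at 0% in 3 libraries and at 0.378% in WT replicate 2, with flanks at 2.63%, 4.12%, 2.89% and 1.60%. Trg, the gamma chain locus, was at 1.59%, 2.07%, 0.962% and 1.19%, with flanks at 3.29%, 4.64%, 4.67% and 2.00%. The differences from the flanks were -16.0 ± 4.67 points for Tra/Trd, -2.72 ± 1.19 for Trb and -2.20 ± 1.24 for Trg. Each of the 6 loci was below its flanks in 4 of 4 libraries (exact two-sided sign-flip permutation test, p = 0.125 each, the smallest p that 4 libraries can give, and 0.125 after Benjamini-Hochberg adjustment over the 9 within-library comparisons). The flanks of Trb and Trg were themselves lower than the genome share of each library, and those of the other loci were higher. With 200 kb on each side the difference was smaller in all loci but Igh. The 200 kb flanks of Igl were covered to 1.51%, 2.75%, 1.98% and 1.47%, so the DNA next to Igl was itself nearly bare, and the difference was -1.93 points. The difference was -17.5 points for Igh, -6.64 for Igk, -9.23 for Tra/Trd and -0.501 for Trb, each with the locus lower in 4 of 4 libraries. For Trg it was -0.829 points, with the locus lower in 3 of 4 libraries (exact two-sided permutation p = 0.25), since KO replicate 1 had 1.59% in the locus and 1.55% in the flanks.

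**Figure D1:**
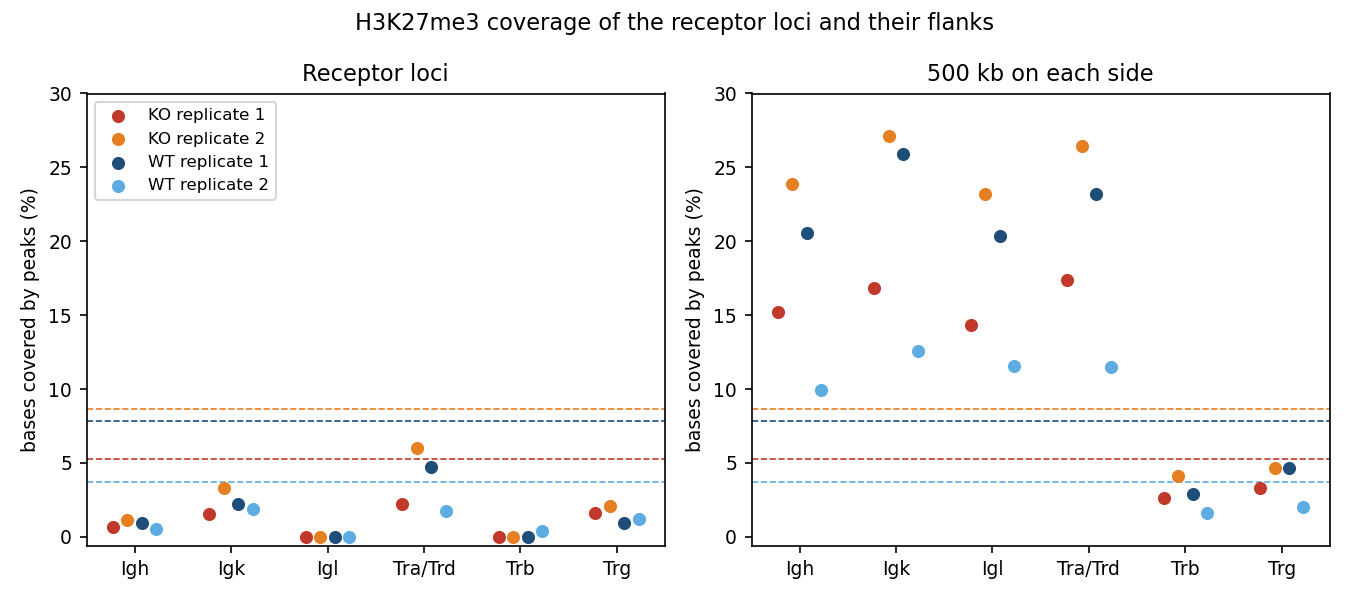
Share of each receptor locus covered by H3K27me3 peaks (vertical axis, percent) in the left panel and of its 500 kb flanks in the right panel, with a point for each of the 4 libraries and dashed lines at the genome share of each library. Each locus lies below its flanks in every library, Igl is at 0% in all 4, and KO replicate 2 is the highest library in Igh, Igk, Tra/Trd and Trg.

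The 3 immunoglobulin loci together were covered to 1.10%, 2.19%, 1.56% and 1.17%, and the 3 T cell receptor loci to 1.60%, 4.22%, 3.28% and 1.36%. Both groups lay below the genome share in 4 of 4 libraries, with differences of -4.87 ± 1.86 points for the immunoglobulin loci and -3.76 ± 1.00 points for the T cell receptor loci (SD, n = 4, exact two-sided permutation p = 0.125). The immunoglobulin loci were lower than the T cell receptor loci in 4 of 4 libraries, with differences of -0.499, -2.03, -1.72 and -0.183 points (mean -1.109 ± 0.904, n = 4, exact two-sided permutation p = 0.125). That order came from Tra/Trd. Without Tra/Trd the mean difference was 1.109 points, with the immunoglobulin loci higher. Counted as the share of windows with any coverage, the immunoglobulin loci were also higher, by 2.64 points. With the same covered length in every library the difference was -0.205 points. Without the windows that meet a gene other than a receptor segment it was -0.365 points. B cells join segments in the immunoglobulin loci, and no input track was used, so DNA lost there and absent mark cannot be told apart.

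Windows covered to at least 25% were few. Among the 889 there were 12, 33, 18 and 4, or 1.35%, 3.71%, 2.02% and 0.450%. Over the genome the shares were 7.92%, 12.6%, 11.7% and 5.28%. Tra/Trd held 9, 18, 12 and 3 of these windows, Igk 1, 12, 2 and 1, and Igh 2, 3, 4 and 0, while Igl, Trb and Trg held none. Only 2 windows passed in all 4 libraries, both in Tra/Trd, against 4.74% of windows in the genome. In contrast, 77.2% of the 889 windows had no coverage in any library, close to the 74.8% of the genome. By class, 73.8% of the immunoglobulin windows and 85.0% of the T cell receptor windows were bare. The loci differed: 60.1% of windows were bare in Igk, 87.1% in Igh, 100% in Igl and 83.4% in Tra/Trd. In Trb it was 95.5% and in Trg 63.2%.

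Few V segments were met, in loci of which little was covered by peaks. The immunoglobulin loci were covered to 1.10%, 2.19%, 1.56% and 1.17%, and the T cell receptor loci to 1.60%, 4.22%, 3.28% and 1.36%. Whether peaks met V segments less often than other DNA of these loci was not tested. A peak met 8, 6, 9 and 6 of the 349 V segments of the immunoglobulin loci and 2, 3, 5 and 1 of the 178 V segments of the T cell receptor loci. Over the 4 libraries these were 24 immunoglobulin and 7 T cell receptor V segments, and none of the 527 was met in every library. Long bare stretches held many of them. In Igh, 1290 kb (chromosome 12, 113880001 to 115170000) with 106 V segments met no peak in any library, or 46.2% of the locus. In Tra/Trd the longest such stretch spanned 1410 kb with 126 V segments, or 77.9% of the locus. Bare stretches of that size occur elsewhere: of 13884 in the genome, 305 were at least as long as that of Igh and 280 at least as long as that of Tra/Trd. Many V segments belong to families of near-identical copies, where short reads may be placed uncertainly, and the settings for such reads were not stated. Without an input track, V, D and J segments lost from rearranged immunoglobulin loci cannot be told apart from unmarked ones.

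Within Tra/Trd, H3K27me3 lay almost wholly at the end that holds the Trd and Traj segments (positions chosen after the values were seen, so these shares are a description). The 1558 kb of Trav segments, which also hold Trdv2-2, were covered to 0.042%, 0.116%, 0.260% and 0.054%. The 177 kb from the last Trav to the first Traj segment (chromosome 14, 53977679 to 54155004), which hold Trdv3, Trdv4, Trdd1, Trdd2, Trdj1, Trdj2, Trdc and Trdv5, were covered to 15.2%, 40.5%, 29.7% and 12.7%. They carried 67.9%, 66.1%, 61.5% and 71.8% of all the coverage in the locus. The 63.8 kb of Traj segments (54155005 to 54218842) were covered to 18.9%, 47.4%, 44.0% and 11.1%. In both stretches the broad libraries, KO replicate 2 and WT replicate 1, were above the narrow ones, in the order of covered length. Neither genotype had both its libraries above both of the other, and the cause of the order was not tested.

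**Figure D2:**
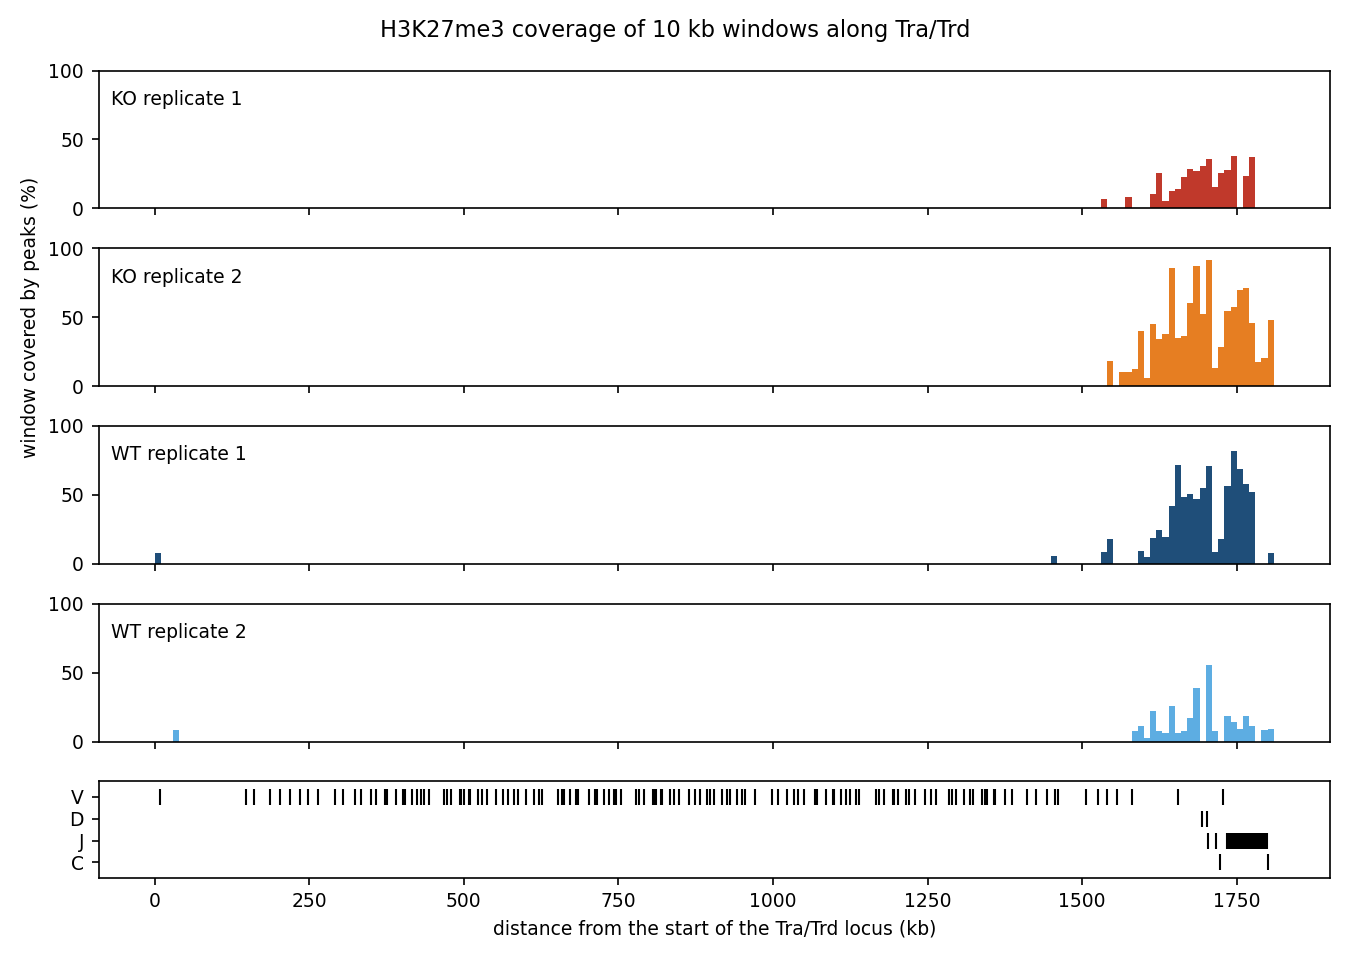
Covered share of each 10 kb window (vertical axis, percent) along Tra/Trd (horizontal axis, kb from the start of the locus), with a panel for each library. The Trav stretch is nearly empty in all 4 panels, and the covered windows gather over the Trd and Traj segments at the far end, where the highest window reaches 91.6% in KO replicate 2 and 55.2% in WT replicate 2.

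The highest window of all 6 loci by mean (chromosome 14, 54120001 to 54130000) holds the delta D segment Trdd2, the delta J segment Trdj1 and the start of Gm30275. It was covered to 35.7%, 91.6%, 71.2% and 55.2%. The next (54100001 to 54110000, inside Gm30275) was covered to 27.5%, 86.9%, 47.2% and 39.0%. The third (54160001 to 54170000), which holds Traj55 to Traj48, was covered to 38.4%, 57.3%, 81.7% and 13.97%. In none of these 3 windows were both libraries of a genotype above both of the other. The body of Trdd2 and of Trdj1 was met in KO replicate 2 and both WT libraries and missed in KO replicate 1, whereas Trdd1 was met in all but WT replicate 2. Trdj2 was met in no library, and Trdc, the delta constant region, was covered to 14.1% in KO replicate 1, 0.522% in KO replicate 2 and 0% in both WT libraries. The alpha constant region Trac was at 0%, 28.7%, 21.6% and 0%.

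The Traj segments split along the chromosome. Of the 30 nearest the V segments (Traj61 to Traj32), a peak met 28 in at least 1 library, with 9, 22, 21 and 5 met per library. Of the 30 farthest from them (Traj31 to Traj1), 13 were met, with 3, 10, 7 and 3 per library. The ground of the first set was covered to 26.1%, 63.3%, 67.0% and 16.1%, and that of the second to 11.7%, 31.4%, 21.1% and 6.12%. The first set was higher in 4 of 4 libraries, a description because the split was made after the values were seen. Traj32 and Traj29 were the only segments of any locus met in all 4 libraries. From Traj23 to Traj18 no segment was met.

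**Figure D3:**
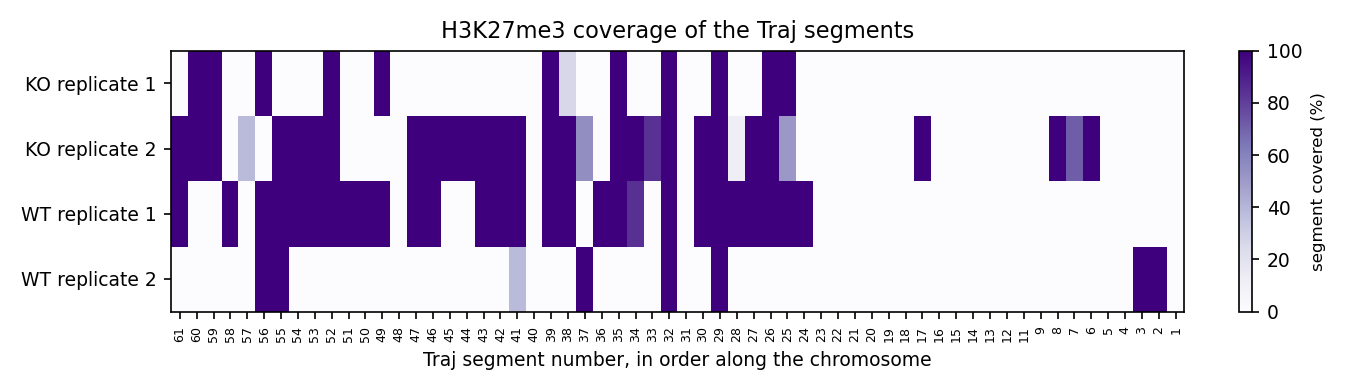
Covered share of each Traj segment (colour, percent of the segment), with the segments in order along the chromosome from Traj61 to Traj1 and a row for each library. Dark cells gather between Traj61 and Traj24, and beyond Traj24 only isolated segments in KO replicate 2 and WT replicate 2 are covered.

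Overlapping peaks of the 4 libraries were merged into regions. A region called in every library can be a chain of overlaps, without a base that all 4 libraries cover. Tra/Trd had 60 regions, 15 of them (25.0%) called in every library, near the 22.9% of the genome. All 6 loci together had 319 regions with 28 (8.78%) called in every library. Igk had 196 regions, of which 139 (70.9%) were called in 1 library and 9 in all 4. Igh had 51, of which 35 (68.6%) were called in 1 library and 4 in all 4. Over the genome 42.6% of regions were called in 1 library. Trb had 3 regions, each in 1 library, and of the 9 in Trg 8 were in a single library. The 15 shared regions of Tra/Trd all lay between 54041837 and 54195720, over the Trd and Traj segments. The longest of them (54119129 to 54128635), over Trdd2, Trdj1 and the start of Gm30275, was 9507 bases long.

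In Igh, the share of DNA covered was higher around the constant genes than over the V segments, a description because the stretches were chosen after the values were seen. The 2437 kb of V segments were covered to 0.201%, 0.135%, 0.210% and 0.202%. Being long, they still held 26.6%, 10.4%, 19.1% and 35.5% of all the coverage in Igh, the largest part of any stretch in WT replicate 2. From Igha, the gene of the IgA heavy chain, to Ighm, that of IgM, 167 kb were covered to 4.65%, 8.13%, 5.61% and 2.34%, and held 42.2%, 42.7%, 34.9% and 28.2% of the coverage. The 36.2 kb of the locus on the far side of Igha were covered to 13.2%, 32.7%, 28.6% and 2.33%. The DNA from Ighm to the first V segment, which holds the D and J segments, was covered to 0.632%, 1.99%, 1.33% and 2.79%, and 0 of the 4 J segments was met. Without the windows below the V segments the KO minus WT difference of Igh changed sign, from 0.168 to -0.0380 points.

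Peaks in the constant region lay between the genes more than on them. Most of the DNA from Igha to Ighm also lies between the genes, so this is only a description. Of the 8 constant genes a peak met 0, 2, 0 and 2, and 3 over all libraries. Regions called in all 4 libraries lay 1574 bases beyond Igha (chromosome 12, 113261810 to 113264888), 1033 bases beyond Ighe (113274281 to 113277284) and 862 bases beyond Ighm (113423592 to 113425756), each on the side toward the V segments. The fourth (113219584 to 113221027) lay at the edge of the locus. The switch regions, where class switching breaks the DNA, lie on the V-facing side of the constant genes, but the annotation used lists none, so no overlap with them was measured. The region beside Ighm was covered to 43.8%, 71.4%, 92.0% and 82.4% of its merged length, and that beside Ighe to 100%, 74.8%, 77.7% and 35.4%. Between Ighm and the J segments the covered share was 16.4%, 26.7%, 34.4% and 30.8%, so this interval was not lowest in WT replicate 2, the narrowest library. Regions called in 3 libraries lay 3665 bases from Ighg2c and 4123 bases from Ighg1. Between Ighd and Ighm no library had coverage. Germinal center B cells can have lost DNA of this stretch by switching, and no input track was used here, so absent DNA and absent mark cannot be told apart.

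**Figure D4:**
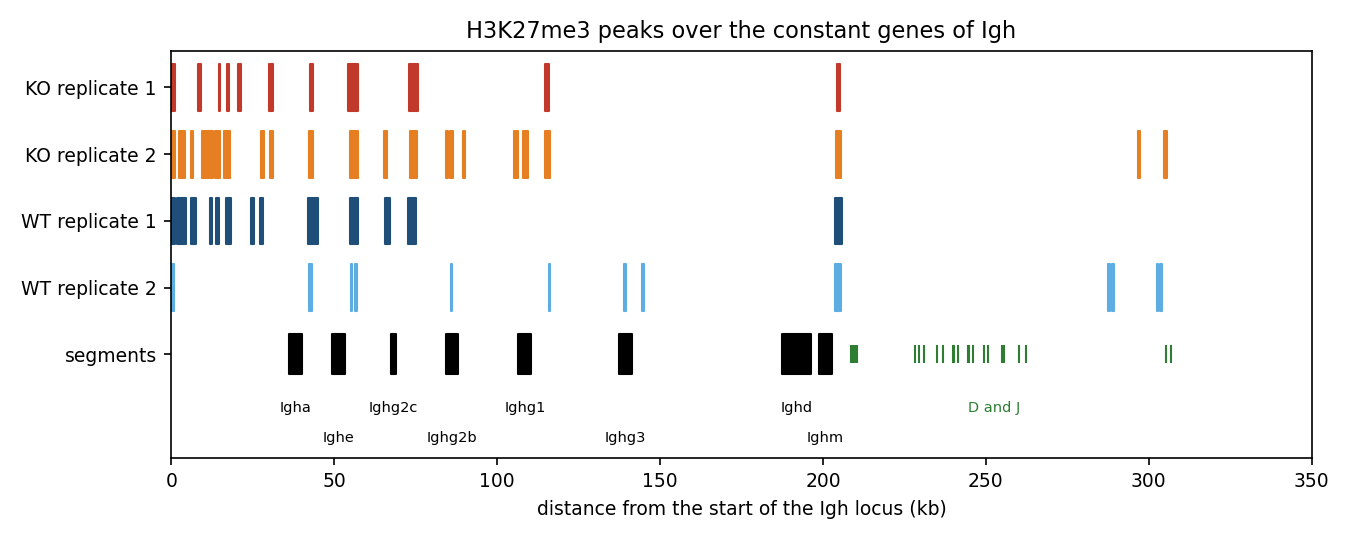
Peaks of the 4 libraries (bars, a row for each library) in the constant region of Igh (horizontal axis, kb from the start of the locus), with the constant genes and the D and J segments marked beneath. Bars shared by the 4 libraries lie beside Igha, Ighe and Ighm and not on them.

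Igk, the kappa light chain locus, was the longest of the 6 loci, with 3180 kb against 2790 kb for Igh and 1810 kb for Tra/Trd. Its peaks, not counted per length, were also the most numerous, 56, 89, 63 and 77, and they were short. Their median lengths were 772 bases, 1125, 1043 and 719, against 1140, 1557, 1512 and 861 for all peaks of each library. A peak touched 127 of the 318 windows of Igk in at least 1 library, and 16 of its 162 V segments. Segments are far shorter than windows, so these counts cannot be compared. The bare share of Igk windows was 60.1%, against 74.8% in the genome, so Igk windows were touched more often than those of the genome. The 5 Jk segments and the constant gene Igkc were met in no library. The 9 regions shared by all libraries lay mostly between V segments, and no comparison with the share of Igk between segments was made. One at 70294245 to 70295778 on chromosome 6, 1776 bases from Igkv8-22, was covered to 78.2%, 93.9%, 98.1% and 99.1% of its length. Another at 68754657 to 68757069, over Igkv4-92, was covered to 27.6%, 41.6%, 65.0% and 33.6%. Its KO peaks did not overlap its WT replicate 2 peak and were joined to it only through a WT replicate 1 peak, so no base was common to all libraries. In Igl, the lambda light chain locus, none of the 3 V, 5 J and 4 C segments was met.

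In Trb a peak met none of the 35 V segments, and 6 of the 14 J segments were met in WT replicate 2 alone. Its highest window (chromosome 6, 41540001 to 41550000, with Trbd2, Trbj2-1 to Trbj2-7 and Trbc2) was covered to 9.55% in that library and 0% in the other 3. In Trg the highest window (chromosome 13, 19340001 to 19350000, with Trgv1, Trgj4 and Trgc4) was covered to 16.5%, 3.44%, 15.6% and 0%. Of the 7 Trg V segments a peak met 1 in each library, 3 segments in all. In both loci the values rested on 0 to 3 peaks per library.

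No difference between KO and WT was detectable in any locus with 2 libraries each. The share of Igh was 0.897 ± 0.337% for KO and 0.729 ± 0.328% for WT (n = 2 each, ± SD, exact two-sided permutation p = 0.667), and Igk to 2.43 ± 1.21% and 2.03 ± 0.243% (exact permutation p = 1). Tra/Trd was at 4.10 ± 2.70% in KO and 3.23 ± 2.12% in WT (n = 2 each, exact permutation p = 0.667). Trg was at 1.83 ± 0.333% in KO and 1.08 ± 0.164% in WT, the only locus whose 2 KO values were each higher than its 2 WT values (exact permutation p = 0.333, the smallest that 2 libraries against 2 can give). At equal covered length in each library, the difference for Trg became -0.597 points. Trb differed by -0.189 points and Igl by 0. The gap between immunoglobulin and T cell receptor loci was -1.27 ± 1.08 points in KO and -0.951 ± 1.09 in WT (n = 2 each, exact permutation p = 0.667). All adjusted p-values over the 8 genotype comparisons were 1, and a design of 2 against 2 cannot pass 0.05.

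By window, both KO libraries were above both WT libraries in 20 of the 203 covered windows (9.85%, against 12.1% of covered windows in the genome) and below both in 17 (8.37%, against 3.47%). In limma's moderated test over 68542 covered windows of the genome, no window passed an adjusted p of 0.05, which 0% of windows did in either direction. At an unadjusted p under 0.05, 0 of the 203 passed, against 1.01% of windows higher and 0.0496% lower in KO over the genome. The lowest limma p for a higher KO value was at 69540001 to 69550000 on chromosome 6, with Igkv4-57-1, where the share was 17.1% and 37.1% in KO and 0% and 4.48% in WT (difference 24.9 points, SE 9.56, limma adjusted p = 1). In the next 4 windows of that order, of which 3 lay in Igk and 1 over Trdc and Trdv5, the difference was 12.4 to 21.1 points. For a lower KO value it was at 67830001 to 67840000, with Igkv9-129, at 0% in both KO libraries and 15.4% and 11.1% in WT (difference -13.3 points, SE 6.10, limma adjusted p = 1). The next 4 of that order all lay in Igk, from -14.2 to -10.6 points. Of the merged regions in the 6 loci, 8 (2.51%, against 3.42% in the genome) were called in both KO and neither WT library, and 10 (3.13%, against 1.80%) in both WT and neither KO library. Of these, 6 and 9 lay in Igk.

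The genes that work with the receptors differed widely in coverage. Of 11 genes for recombination and DNA repair enzymes, 2, 3, 2 and 2 passed the 25% level, while 17.6%, 26.2%, 23.5% and 13.1% of the 21887 protein-coding genes were. Rag2, a subunit of the recombinase, was covered to 79.9%, 80.6%, 73.6% and 58.3%. Dntt, which adds bases at V(D)J joints, was covered to 75.1%, 90.1%, 88.9% and 53.8%. Both genes act in developing lymphocytes and were high in all 4 libraries. Rag1 was lower, at 14.6%, 29.98%, 13.3% and 18.3%. Xrcc4 and Lig4, which join broken DNA ends, were at 0% in every library, and the median of the 11 genes was 0.629%, 2.09%, 2.32% and 2.52%, beside 0.0774%, 3.004%, 1.38% and 0% for all protein-coding genes.

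Of 12 partners of the B cell receptor, the same numbers passed 25%, 2, 3, 2 and 2, and their median was 0%, 7.28%, 0% and 0%. These counts were near the share of all protein-coding genes that passed, 17.6%, 26.2%, 23.5% and 13.1%. The high ones in all 4 libraries were Igll1, at 91.8%, 92.4%, 98.3% and 55.0%, and Vpreb2, at 26.1%, 95.9%, 70.5% and 45.03%. Both encode parts of the surrogate light chain, which pairs with the heavy chain before a light chain is made. Vpreb1, the other surrogate light chain gene of that kind, was at 0% in all 4 libraries, as was the kinase gene Btk. Cd79b, a signalling chain of the receptor, was at 31.0% in KO replicate 2 and at 0% elsewhere. Of 12 partners of the T cell receptor, 6, 8, 9 and 4 passed 25%, above the share of all genes in every library. Their median was 23.4%, 44.1%, 58.0% and 15.2%. Cd3e, a chain of the CD3 complex, was covered to 63.0%, 85.9%, 91.8% and 60.6%, and the coreceptor gene Cd4 to 72.6%, 83.5%, 82.3% and 60.3%. Lck, the kinase that CD4 carries, was at 0% in every library. The CD3 genes were thus covered to many times the share of any T cell receptor locus in the same libraries, a comparison of genes with loci of far greater length and therefore only a description.

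**Figure D5:**
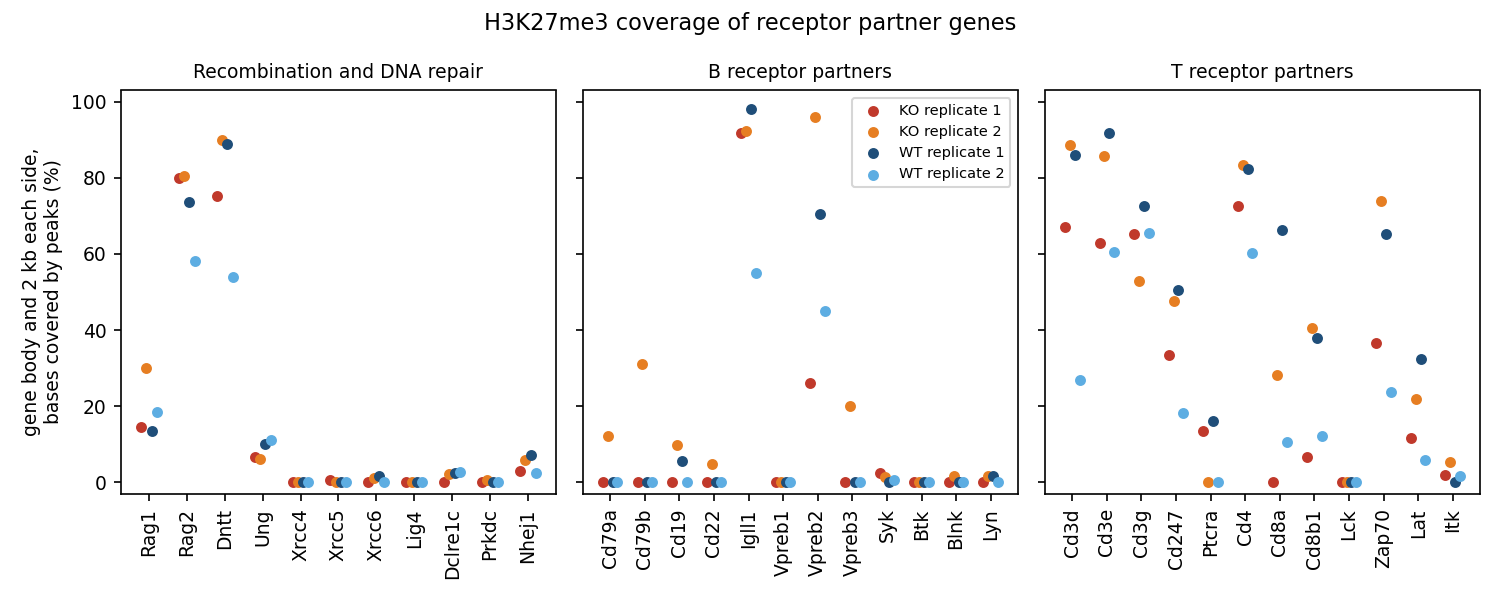
Covered share (percent) of the genes of the 3 lists in each library: recombination and DNA repair enzymes, B cell receptor partners and T cell receptor partners. Rag2, Dntt, Igll1, Cd3e and Cd4 lie above 50% in all 4 libraries, while Lck, Btk, Vpreb1, Xrcc4 and Lig4 are at 0%.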

How the data were processed

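Only peak lists were used, 1 per library and not pooled. The deposited signal columns hold the summed and the highest coverage of each peak as the authors' peak caller wrote them, and were used to rank peaks within a list. The submitters' processing notes name Trim Galore 0.6.6, Bowtie2 2.4.2, SAMtools 1.11, SEACR, deepTools and build mm10. Settings, a control track and scaling were not given in the sources used here. Read depth is unknown, so no counting interval is given.

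Locus bounds are fixed coordinates. Covered share is the length under peaks divided by the length of the locus, window, segment or gene, and no track of signal outside peaks was used. Segments, genes and promoters came from RefSeq tables for GRCm38.p6, which shares its chromosome coordinates with mm10. Within-library differences were tested by exact sign flips over 4 libraries, genotype by exact permutation over 6 relabellings, and windows of 10 kb with limma 3.58.1 (R 4.3.3), after a test on simulated data. The simulated noise was fixed and not taken from the spread of these data, so that test does not show power here. P-values were adjusted by Benjamini-Hochberg. Each mouse gave 1 library. Python 3.11.15, numpy 2.4.6, pandas 2.3.3, scipy 1.17.1 and matplotlib 3.10.9 were used.

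Windows are named as the 3 with the highest mean per locus and the 5 with the lowest limma p in each direction. The members and the gene lists were chosen with earlier results of these data known, and 1 listed gene is not reported here. Alternatives covered the peak threshold, equal covered length, window thresholds, flank width, leaving out each library or locus, and equal weights for the loci.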

Additional observations from a re-analysis of the deposited data

How the results depend on the processing

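The differences of each locus from its flanks, and of both receptor groups from the genome, kept the sign of their mean in every alternative run, but not their size. With flanks of 200 kb the differences were -17.5 (Igh), -6.64 (Igk), -1.93 (Igl), -9.23 (Tra/Trd), -0.501 (Trb) and -0.829 points (Trg, lower in 3 of 4 libraries), and with 1000 kb they ranged from -17.2 (Tra/Trd) to -2.97 (Trg). Of 261 alternative values, 217 kept their direction or stayed at 0, 34 reversed and 10 fell to 0. The side of the threshold says nothing for the permutation tests, since no result could pass it. Their p could not fall below 0.125 within libraries or 0.333 between genotypes. The 217 include 10 values for KO minus WT in Igl, which had no peak and could only be 0. They also include 11 counts of limma windows in each direction. The immunoglobulin minus T cell receptor difference was 2.64 points with windows of any coverage, 1.109 without Tra/Trd, and, in alternatives chosen after seeing the data, 1.13 with V stretches only and 1.29 without the stretch from the last Trav segment to the locus end. It shrank to -0.205 at equal covered length, -0.365 without windows that meet other genes and -0.546 without Igh. Leaving out each library gave -1.42 to -0.801.

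The KO minus WT differences, which could not pass the threshold with 2 libraries per genotype, changed sign with the processing. Apart from the stated alternatives the cause was not tested. At equal covered length they were -0.418 (immunoglobulin loci), -0.393 (T cell receptor loci), -0.151 (Igh), -0.684 (Igk), -0.447 (Tra/Trd) and -0.597 (Trg). As windows covered to at least 25%, Trb and Trg were 0. At 50%, the immunoglobulin loci, Igh, Igk, Trb and Trg were 0, the T cell receptor loci -0.187, Tra/Trd -0.276 and the difference of the groups 0.187. With any coverage, the T cell receptor loci were -0.375, Igh and Tra/Trd 0, and the difference of the groups 1.02. Divided by the genome share, the immunoglobulin loci were -0.0268, Igh -0.000374 and Igk -0.0521. Without Tra/Trd the difference of the groups was 0.260. In the added alternatives, V stretches only gave -0.0769 for the T cell receptor loci and 0.277 for the difference of the groups, leaving out the end stretch of Tra/Trd -0.0437 and 0.322, and Igh without the part below its V segments -0.0380.

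Leaving out each library gave -0.265 to 0.823 for the immunoglobulin loci, -0.717 to 1.90 for the T cell receptor loci, -1.08 to 0.454 for the difference of the groups, -0.0702 to 0.406 for Igh, -0.457 to 1.25 for Igk, -1.04 to 2.77 for Tra/Trd, -0.378 to 0 for Trb and 0.517 to 0.989 for Trg. Signs turned without KO replicate 2 (both groups, their difference, Igh, Igk, Tra/Trd) and without WT replicate 2 (T cell receptor loci, the difference of the groups, Igh, Tra/Trd). No limma alternative that kept all 4 libraries called a window of these loci. Calls were as rare over the genome, so this count says nothing particular about the loci. Without the coverage filter, 11 of 272252 windows were called higher and 4 lower in KO. With covered length as a covariate, 2 of 68542 were called higher and 0 lower, and the other such alternatives called none. No paired analysis was possible because the labels give no replicate numbers.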

Other observations

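Ranked by highest signal within its own library's list (0 the lowest peak, 100 the highest), the median peak of Igh stood at percentiles 32.02 and 38.2 in the KO and 47.6 and 40.3 in the WT libraries. For Igk the percentiles were 35.01, 28.8, 30.6 and 41.8, and for Tra/Trd 39.6, 46.8, 37.1 and 35.3, so in all 4 libraries the median peak of these 3 loci was below the middle of its list. The highest peaks were not low: the top Igk peak of WT replicate 2 stood at percentile 93.6 and the top Igh peak of KO replicate 2 at 90.4. Tra/Trd peaks had median lengths of 1041, 1796, 1666 and 823 bases, longer than those of Igk in every library.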
